A study of Rattus norvegicus with 12 samples.

Results

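Serpins, the serine protease inhibitors, were read in the cervix of pregnant and non-pregnant rats from every probe of the array whose gene name begins with Serpin and that is no control spot. The rule found 43 probes of the 30367 on the array, which stand for 39 of 26583 gene names. By the letter of the name 13 genes were of clade A, 16 of clade B, 2 of clade E, 2 of clade F, 2 of clade I and 1 each of clades C, D, G and H. Of the genes, 35 had 1 probe and 4 had 2 probes.

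RNA came from collagenase-dispersed cells of the cervix of adult Sprague Dawley rats that had been perfused with saline, with 1 rat on each of 12 Agilent 1-colour arrays and 3 rats in each of 4 groups. NP rats were non-pregnant and in proestrus, and D21 rats were pregnant, at day 21 after breeding, usually the day before birth. Whole cervix cells were frozen directly after dispersal (D21 rats 5, 6 and 7, NP rats 8, 9 and 10), while Mφ-depleted cells of other rats (D21 rats 1, 2 and 4, NP rats 5, 6 and 7) first went through incubation with the ED1 antibody and magnetic beads. Since the whole cells did not pass through those steps, removal of Mφs and the handling that came with it cannot be told apart. The difference between whole and Mφ-depleted cervix was the study's way to find expression that depends on Mφs, and the difference between D21 and NP rats its way to find what changes before birth.

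A serpin holds out a flexible reactive centre loop as bait. When a protease cuts the loop, the serpin folds over, and the protease is dragged along and trapped as a dead covalent complex, so that each inhibitor molecule is spent. Clade A holds plasma proteins made mostly by liver, such as antitrypsin and antichymotrypsin. Clade B serpins lack a classical signal peptide and act mainly inside leukocytes and epithelial cells, clade E curbs plasminogen activators and thrombin, clade G is the C1 inhibitor of complement, and some members, Serpinh1 among them, inhibit nothing. In the cervix serpins stand against the proteases of plasminogen activation, leukocytes and lysosomes that are linked with breakdown of the matrix before birth.

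Values are log2 intensities minus the log2 75th percentile of the array, so that 0 is the 75th percentile of that array and 1 step is a 2-fold difference. The 75th percentile ran from 290 to 1171 intensity units and the share of probes that the scanner software rated well above background from 44.9% to 61.8%. There were 4 slides, read on 3 scan days. Slide 4 held NP rat 10 and all 3 D21 rats of whole cervix, slide 3 the other whole NP rats with NP rat 7 and D21 rat 4 of Mφ-depleted cervix, and the other depleted arrays lay on slides 1 and 2. Slide 1 was read on scan day 1, slide 2 on scan day 2, and slides 3 and 4 on scan day 3. All whole arrays were thus read on scan day 3 and most depleted arrays before it. Whole against depleted cervix is therefore largely confounded with scan day and slide. Of 10 Mφ markers, 9 of 10 tested were called higher in whole cervix when set against Mφ-depleted cervix in D21 rats, and 7 of 8 tested in NP rats (limma, adjusted p below 0.05). Csf1r, the receptor of the Mφ growth factor, was higher by 6.74 in D21 and 6.68 in NP rats on the log2 scale, while Cd68, whose product is the ED1 antigen, differed by -0.14 and 0.54 and was called in neither (adjusted p = 0.893 and 0.569 from limma).

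The clade B serpins carry the sequence question, because some of their paralogs have probes that are alike. Among 899 pairs of probes of different serpin genes, only 5 pairs had 35 or more identical bases of 60 at their best ungapped match, and all 5 were of clade B. The other pairs reached at most 33. Probe sequences are given for those genes, which lie in the rn4 build on chromosome 13, and for Serpinb6b on chromosome 17. The annotation used here gives the gene of each probe but not whether it lies in an exon or UTR. In the first set capitals mark the 25 bases that all 4 probes share once they are lined up:
Serpinb3a (chr13:13306384-13306443, minus strand): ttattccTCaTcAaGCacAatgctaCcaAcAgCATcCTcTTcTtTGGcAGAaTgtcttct
Serpinb3 (chr13:13339447-13339506, minus strand): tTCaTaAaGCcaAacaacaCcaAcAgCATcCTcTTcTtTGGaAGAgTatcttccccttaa
Serpinb13 (chr13:13209154-13209213, plus strand): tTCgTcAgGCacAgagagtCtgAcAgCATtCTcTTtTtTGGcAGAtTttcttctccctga
Serpinb10 (chr13:13662151-13662210, plus strand): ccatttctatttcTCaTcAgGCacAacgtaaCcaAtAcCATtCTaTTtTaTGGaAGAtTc

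Serpinb3 and Serpinb3a shared 42 of 60 bases. The probe of Serpinb13 shared 40 with each of them, and that of Serpinb10 shared 39 with Serpinb3a. The second set shows Serpinb6b and Serpinb8, whose probes shared 40 bases (capitals) although the genes lie on different chromosomes, and which moved in opposite directions in the comparisons that follow:
Serpinb6b (chr17:37816952-37817011, minus strand): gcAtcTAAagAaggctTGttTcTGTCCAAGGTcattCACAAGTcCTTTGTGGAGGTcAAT
Serpinb8 (chr13:13739649-13739708, plus strand): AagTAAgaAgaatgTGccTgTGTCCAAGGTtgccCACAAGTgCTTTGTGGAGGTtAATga
Signal of one gene on the probe of another was not tested, and values of Serpinb3 and Serpinb13 in particular stay uncertain for that reason. Both Serpinb1a probes overlap by 37 bases and so are nearly 1 measurement.

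Many serpin genes were below the reach of the array in the cervix, most of them in clade A. A gene was tested where the scanner rated its brightest probe well above background in all 3 rats of 1 or both groups compared, and 22 of the 39 genes met this in at least 1 comparison. Another 10 were well above background on no array, and 7 on some arrays without filling a group. In clade A, 3 of 13 genes were tested and 6 were seen on no array: Serpina10, a Z-protein-dependent clotting inhibitor, the hormone carriers Serpina6 and Serpina7, Serpina1f, Serpina3k and Serpina3m. Antithrombin (Serpinc1), heparin cofactor II (Serpind1), Serpini2 and Serpinb9e were likewise on no array well above background. None of 5 hepatocyte markers and none of 8 coagulation and contact proteases could be tested in any comparison. By contrast 13 of the 16 clade B genes were tested. The 7 genes seen in part were Serpina4, Serpina5, Serpina9, Serpina12, Serpinb3, Serpinb13 and antiplasmin (Serpinf2), and no difference is tested for them.

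**Figure D1:**
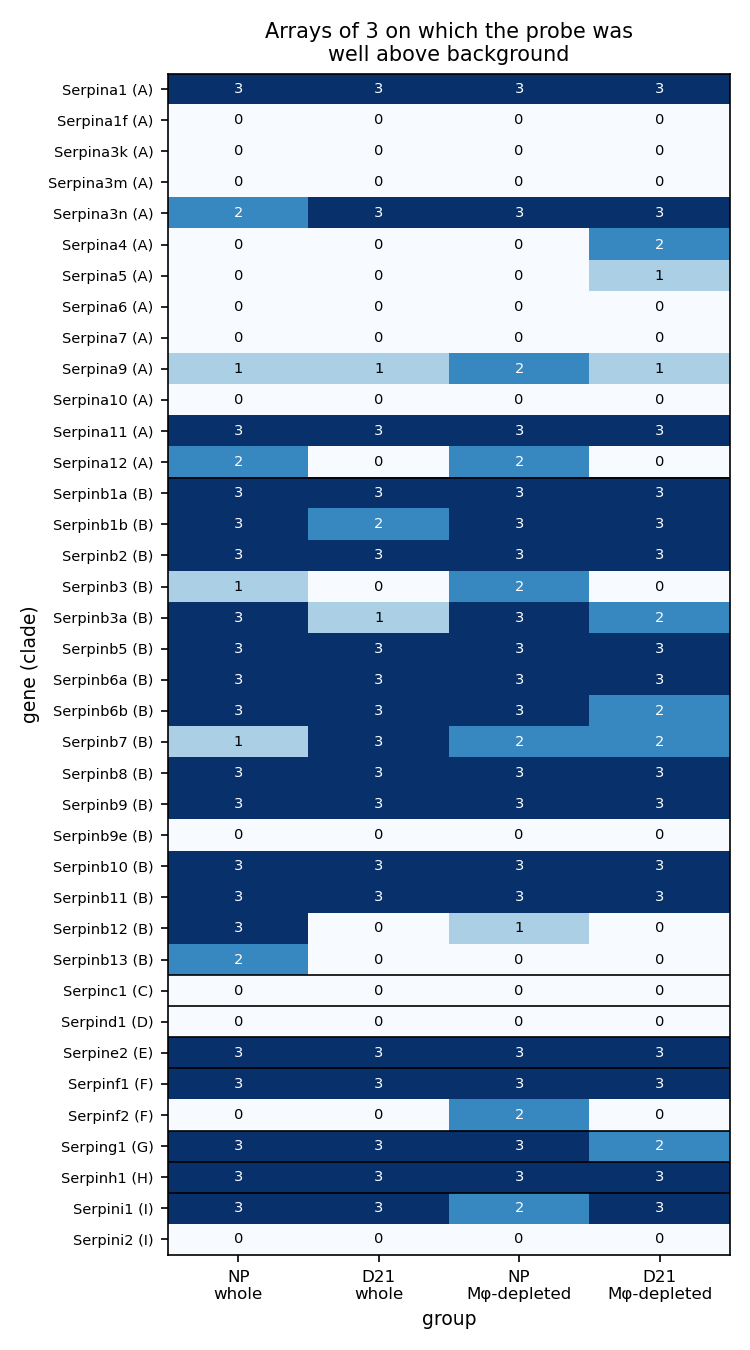
Number of arrays, of 3 in each group, on which the brightest probe of 38 serpin genes was well above background, with clades in brackets and separated by lines. Most clade B genes are at 3 in at least 1 group, while 6 of the 13 clade A genes and the single genes of clades C and D are 0 throughout.

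In whole cervix, D21 rats had more Serpina1 and Serpinb8 and less Serpinb6b, Serpinb9 and Serpinb12 than NP rats. These 5 of 22 genes tested were called (limma, Benjamini-Hochberg adjusted p below 0.05 over all probes tested), 2 higher and 3 lower, against 2.02% of all probes tested that were called higher and 0.694% called lower. The median difference of the 22 genes was -0.52 on the log2 scale and that of all probes tested -0.06. Of the genes tested, 9 had an unadjusted p below 0.05, and 9 had groups that did not overlap. The share of all probes with either feature was not computed, so neither count is read as a trait of the serpins.

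Serpina1, antitrypsin, the main inhibitor of neutrophil elastase, read -1.05, 0.95 and -0.83 in NP rats 8, 9 and 10 and 1.87, 1.89 and 2.62 in D21 rats 5, 6 and 7 on the log2 scale. Its groups did not overlap, but NP rat 9 lay far above the other NP rats. The difference was 2.44 (SE 0.54, adjusted p = 0.0434 from limma), or 5.42-fold. In Mφ-depleted cervix it read 0.29, 0.93 and -0.34 in NP rats 5, 6 and 7 and 2.11, 1.73 and 1.18 in D21 rats 1, 2 and 4. There too every D21 rat was above every NP rat, with a difference of 1.38 that was not called (SE 0.54, adjusted p = 0.236 from limma). Whole and Mφ-depleted cervix differed by 0.45 in D21 and -0.61 in NP rats, with no call in either state. Of 7 glandular epithelium markers, 3 were called higher in D21 than in NP whole cervix and none lower, and their mean level ran from 2.04 to 2.92 in NP and from 4.51 to 4.68 in D21 rats. Whether that list has a part in the level of Serpina1 was not tested. In bulk cells like these, fewer cells of a type and less RNA per cell cannot be told apart.

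The 2 paralogs with like probes ran against each other. Serpinb8, an intracellular inhibitor of furin-like proteases, read -0.93, -0.95 and -0.52 in whole NP cervix and 0.59, 0.99 and 0.59 in whole D21 cervix. Serpinb6b read -0.52, -0.41 and -0.50 in NP and -2.33, -2.47 and -2.43 in D21 rats. In both genes the 2 states were separated by more than a log2 step, which was more than the rats of a state differed among themselves. The D21 minus NP difference was 1.52 for Serpinb8 (SE 0.29, adjusted p = 0.0246 from limma) and -1.93 for Serpinb6b (SE 0.32, adjusted p = 0.0175 from limma). The other probe of Serpinb8 (13741333 to 13741392 on chromosome 13), which had no more than 33 bases in common with the probe of any other serpin gene, gave 1.84 (adjusted p = 0.0373 from limma). Probes were compared with probes only and not with transcripts, so signal of other serpin genes on that probe was not tested.

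Serpinb9, which protects killer cells and their neighbours from granzyme B, read 2.48, 1.88 and 2.27 in NP and 0.92, 0.02 and 0.24 in D21 whole cervix, a difference of -1.81 (SE 0.38, adjusted p = 0.0342 from limma). Its target Gzmb was well above background on 1 of 3 whole NP arrays and no other, and so was not tested. Of 6 T and NK cell markers only 2 could be tested between these groups, and 0 were called. The mean level of all 6 was between -4.02 and -3.33 in NP and between -5.12 and -4.75 in D21 rats, lower in every D21 rat, and 2 of the markers in NP and 4 in D21 rats were well above background on no array. Their part in the level of Serpinb9 was not tested.

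Serpinb12, an epithelial serpin, read -1.85, -1.79 and 0.08 in whole NP cervix, and -6.17, -6.42 and -6.24 in whole D21 cervix, where no array had it well above background. The D21 minus NP difference was -5.09 (SE 1.07, adjusted p = 0.0352 from limma), computed with those D21 values below background. The gene was tested only because the NP arrays were bright. Without the filter on background it was not called (adjusted p = 0.064 from limma). As a bound, it was at least 8.66-fold lower in D21 rats. The bound sets the NP mean against the lowest signal that counted as well above background on each D21 array, or the probe's own value there if higher. In Mφ-depleted cervix it read -3.68, -6.94 and -2.29 in NP rats, with 1 of 3 arrays well above background, and -7.44, -7.02 and -4.73 in D21 rats, with none.

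A further 3 genes were lower in D21 rats without being called. Serpine2, the protease nexin that blocks thrombin and plasminogen activators, differed by -1.25 (adjusted p = 0.0873 from limma), Serpinh1, the collagen chaperone, by -1.11 (adjusted p = 0.137) and the neuronal serpin Serpini1 by -1.05 (adjusted p = 0.24). The other probe of Serpini1 gave -0.62 (adjusted p = 0.615 from limma). For these 3 genes every D21 rat was below every NP rat. Serpinb3a, a squamous cell carcinoma antigen, had the largest difference of all members tested here, -5.32, but with an SE of 2.02 and overlapping groups (adjusted p = 0.19 from limma).

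The 5 calls rest on few arrays. On slide 4 alone, NP rat 10 against the 3 D21 rats, all 5 genes kept their direction. Since the groups of all 5 did not overlap, no other direction was possible. With slide as a block Serpinb12 was the only one still called, and with another background correction (normexp) 0 were. Leaving out any 1 of NP rats 8 and 10 and D21 rats 5, 6 and 7 left 0 of the 5 called, and leaving out NP rat 9 gave 7.

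**Figure D2:**
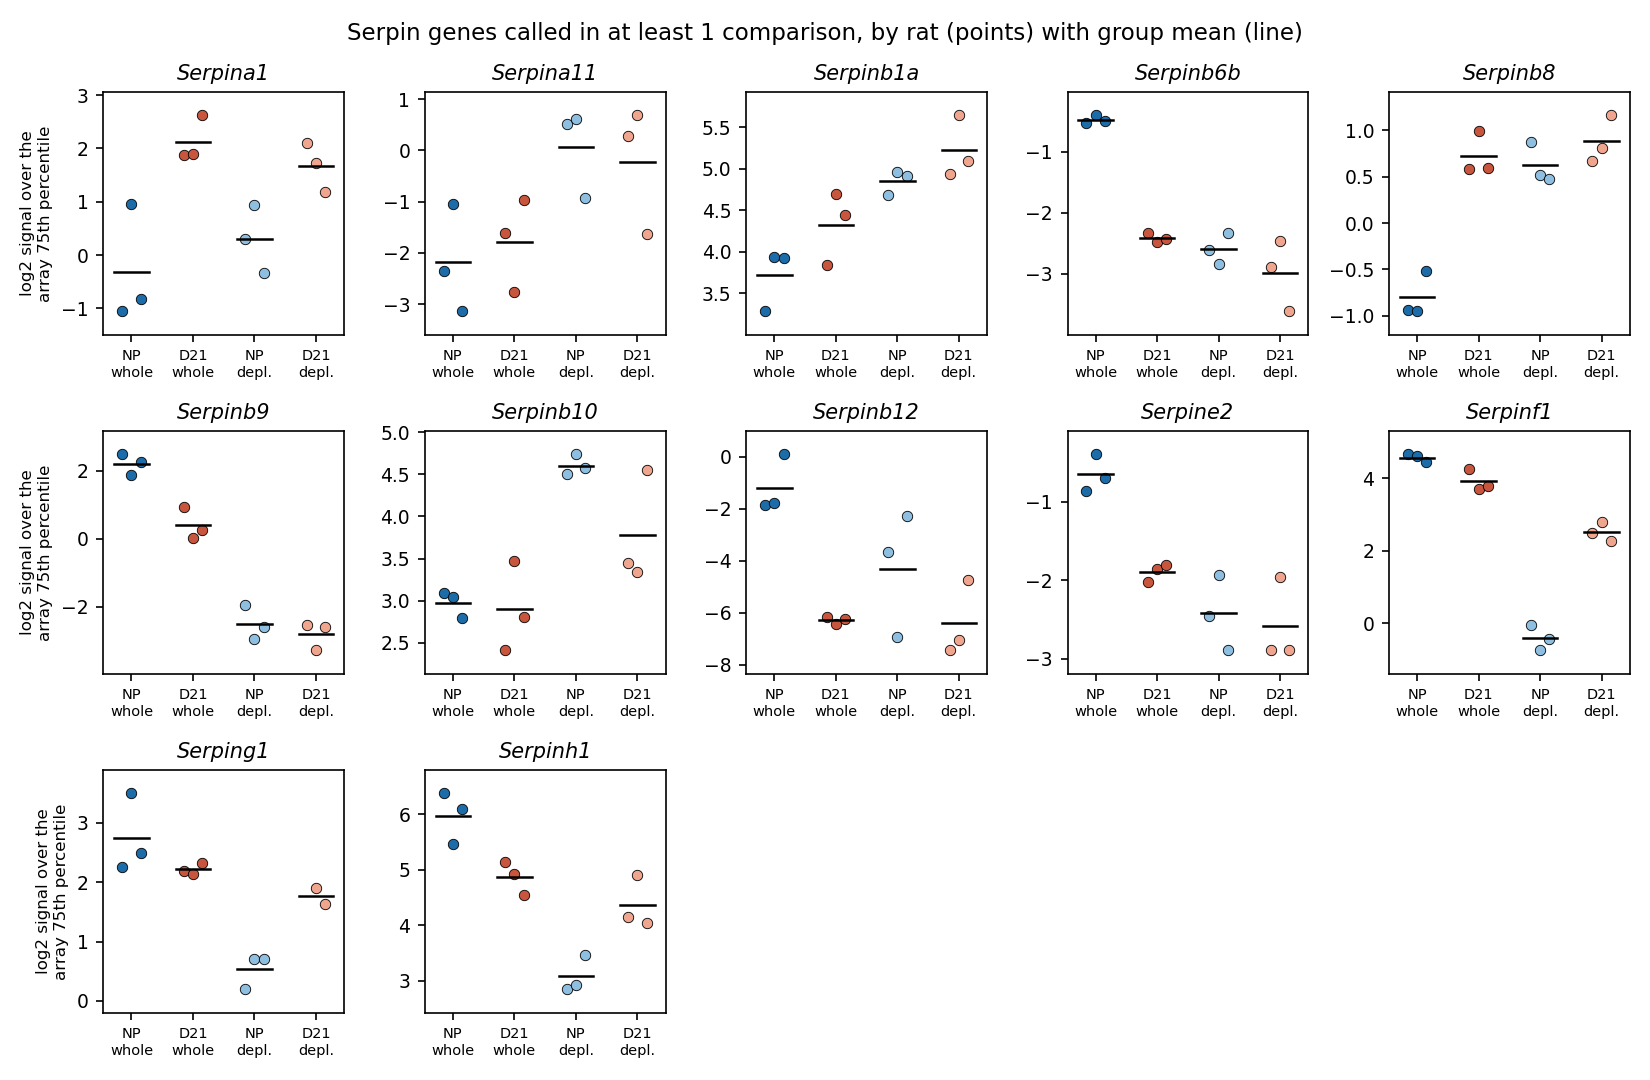
Log2 signal over the 75th percentile of the array for 12 serpin genes called in at least 1 comparison. Each point is 1 rat and each line the mean of the rats of a group (n = 3, for Serping1 in D21 Mφ-depleted cervix 2). The D21 and NP whole groups are apart for Serpinb6b and Serpinb8 in opposite directions, and Serpinf1 is lowest in the 3 NP Mφ-depleted rats.

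Some serpins known from stratified epithelium varied widely between rats of a group. Serpinb2, Serpinb3a, Serpina12 and Serpinb13 were chosen for this description after their values were seen. Serpinb2, an inhibitor of urokinase, read 3.04, 0.89 and 3.44 in whole NP rats 8, 9 and 10 and -0.19, 2.81 and -0.66 in whole D21 rats 5, 6 and 7. Serpinb3a read 3.55, -1.50 and 4.02 in the NP and -4.25, -0.63 and -5.02 in the D21 rats. NP rat 9 was low and D21 rat 6 high for both genes. In Mφ-depleted cervix Serpinb3a read 4.60, 0.89 and 3.02 in NP rats 5, 6 and 7 and -5.09, -5.00 and 1.66 in D21 rats 1, 2 and 4, so that D21 rat 4 stood with the NP rats.

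Serpina12 (vaspin, an inhibitor of a skin kallikrein) and Serpinb13 (hurpin, an inhibitor of lysosomal cathepsins) were well above background in 2 of the 3 whole NP rats and in no whole D21 rat. Serpina12 read 0.98, -5.79 and 3.34 in the NP rats and between -6.56 and -5.82 in the D21 rats. Serpinb13 read -2.09, -5.59 and -0.74 against a range of -6.32 to -6.12. Again NP rat 9 lay close to the D21 rats. Since the probes of Serpinb13 and Serpinb3a are alike, signal of the brighter Serpinb3a on the Serpinb13 probe was possible and was not tested.

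The mean level of 9 squamous epithelium markers was 2.39, 0.59 and 2.35 in the same NP rats and 0.60, 1.48 and 0.70 in the D21 rats, and 3.48, 2.04 and 3.95 in NP and 1.21, 1.82 and 2.87 in D21 rats of Mφ-depleted cervix. Among whole NP rats it was lowest in rat 9, and among whole D21 rats highest in rat 6. In whole D21 rats 2 of the markers were well above background on no array, and in each other group 1. Between D21 and NP whole cervix the markers went both ways. Lor (-6.22), Dsc3 (-2.02), Krt14 (-1.30), Tp63 (-0.46) and Ivl (-0.34) were lower in D21 rats. Krt5 (0.27), Krt13 (0.56), Krt15 (0.80) and Dsg3 (1.03) were higher. Lor, which weighs most in the mean, was well above background on no whole D21 array. Of the markers, 0 of 6 tested in whole and 0 of 8 tested in Mφ-depleted cervix were called between D21 and NP rats. The part of the squamous markers in these serpin levels was not tested. Serpinb5 (maspin) and Serpinb11, which lie in the same stretch of chromosome 13 between 13057470 and 13739708 in rn4 as the other 8 clade B genes there, were well above background on all 12 arrays and differed by 0.33 and 0.27 between D21 and NP whole cervix, with overlapping groups.

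**Figure D3:**
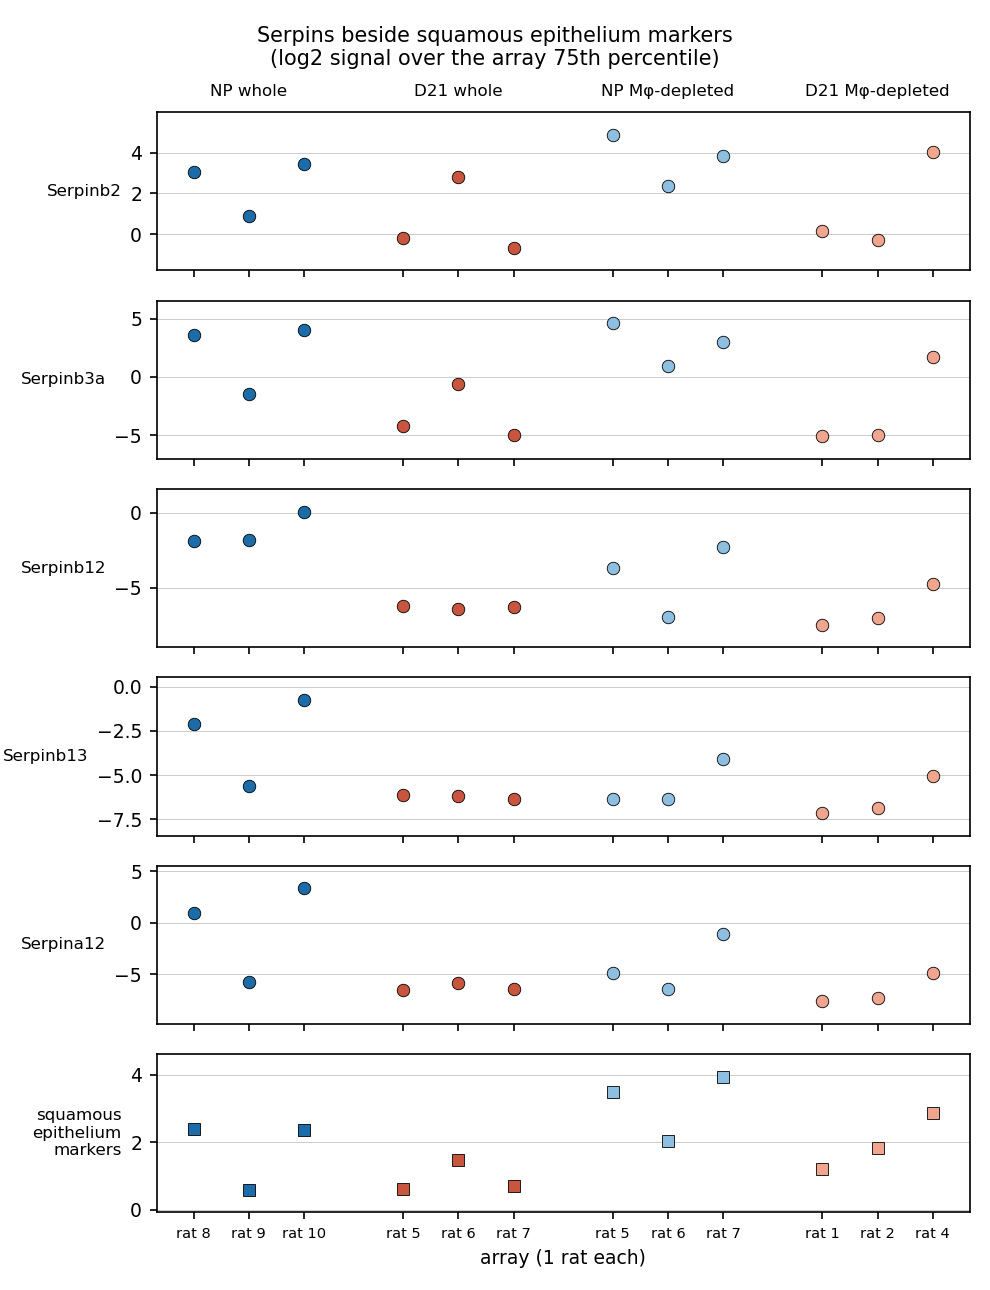
Log2 signal over the 75th percentile of the array in each rat for 5 serpin genes (circles) and the mean of 9 squamous epithelium markers (squares), with groups side by side. Among whole NP rats, rat 9 is lowest in every panel but that of Serpinb12, where it is level with rat 8. In D21 Mφ-depleted cervix Serpinb12, Serpinb13 and Serpina12 were well above background in no rat, so that their points there have no order.

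In Mφ-depleted cervix only Serpinf1 was called between D21 and NP rats among 20 serpin genes tested. It was higher, against 2.26% of all probes called higher and 0.35% called lower. Serpinf1 is pigment epithelium-derived factor, a secreted serpin that inhibits no protease and binds collagen and limits vessel growth. It read -0.06, -0.74 and -0.43 in NP rats and 2.50, 2.79 and 2.26 in D21 rats, with a wide gap between the groups. The difference was 2.93 (SE 0.30, adjusted p = 0.00096 from limma), or 7.6-fold. It was 3.19 on slide 1 and 2.69 on slide 3, the slides that held rats of both states.

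In whole cervix the same gene stood the other way round, with 4.65, 4.60 and 4.45 in NP and 4.26, 3.71 and 3.77 in D21 rats. Every D21 rat was lower there, by -0.65 in the mean, which was not called (adjusted p = 0.277 from limma). Serpinf1 was lower in Mφ-depleted than in whole cervix in both states, but by different amounts. Whole exceeded Mφ-depleted cervix by 4.98 in NP rats (SE 0.30, adjusted p = 6.05e-06 from limma), a 31.5-fold difference, and by 1.40 in D21 rats (SE 0.30, adjusted p = 0.0144). The difference between those differences was -3.58 (SE 0.42, 95% confidence interval -4.51 to -2.65, adjusted p = 0.00766 from limma), the single call among 22 serpin genes tested for an interaction, where 1.01% of all probes were called. It was no longer called without whole D21 rat 7 (-3.51, adjusted p = 0.056 from limma), with slide as a block (-3.51, adjusted p = 0.06) or with normexp (-2.97, adjusted p = 0.185). Of the 22 genes, 6 had an unadjusted p below 0.05, a count for which no share over all probes was computed.

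Serpinh1, also known as Hsp47, is the chaperone that folds procollagen in the endoplasmic reticulum. It read 6.38, 5.46 and 6.10 in whole NP, 5.14, 4.93 and 4.54 in whole D21, 2.84, 2.92 and 3.47 in depleted NP and 4.15, 4.91 and 4.03 in depleted D21 rats. The order of the groups was that of Serpinf1: whole NP at the top and depleted NP at the bottom, with no overlap between depleted NP and any other group. Whole exceeded depleted cervix by 2.90 in NP rats (SE 0.37, adjusted p = 0.000238 from limma) and by 0.50 in D21 rats (SE 0.37, adjusted p = 0.348). In depleted cervix D21 rats exceeded NP rats by 1.29, without overlap and without a call (adjusted p = 0.105 from limma). The interaction of -2.40 missed the threshold (adjusted p = 0.0573 from limma).

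Serping1, the inhibitor of the first complement proteases, read 2.25, 3.50 and 2.49 in whole NP, 2.18, 2.14 and 2.32 in whole D21 and 0.20, 0.71 and 0.71 in depleted NP rats. In depleted D21 cervix it read 1.90 in rat 2 and 1.63 in rat 4, and the spot of rat 1 was an outlier and was left out of the fit. Whole exceeded depleted NP cervix by 2.21 (SE 0.36, adjusted p = 0.0017 from limma). In depleted cervix D21 rats exceeded NP rats by 1.23, also without overlap and without a call (adjusted p = 0.174 from limma). The Serping1 interaction of -1.76 was not called (adjusted p = 0.168 from limma).

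Genes that the 3 serpins are known to act on or beside are given next. The 3 collagens are also among the 8 fibroblast markers, so those lists share data. All 3 collagens that Serpinh1 serves (Col1a1, Col1a2 and Col3a1) were called higher in D21 than in NP Mφ-depleted cervix, by 2.63 to 4.23, higher in whole than in depleted NP cervix, by 3.94 to 4.33, and in the interaction, by -4.56 to -3.08. None was called between D21 and NP whole cervix or between whole and depleted D21 cervix. C1r and C1s, the proteases that Serping1 blocks, were higher in D21 than in NP depleted cervix by 3.01 and 1.68, and higher in whole than in depleted NP cervix by 3.34 and 3.70. In D21 rats C1s was higher in whole than in depleted cervix by 2.31 (adjusted p = 0.00434 from limma), and C1r, with 0.65, was not called, nor was Serping1, with 0.45. Masp1, the lectin pathway protease, was called there too, at least 2.84-fold higher in whole cervix, since no depleted array saw it.

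All 8 fibroblast markers, the collagens above among them, were called higher in whole than in depleted NP cervix. In D21 rats 2 of 8 were called higher, and in D21 against NP depleted cervix 6 of 8. Their mean level ran from 4.62 to 4.78 in whole NP, 4.30 to 4.71 in whole D21, 3.17 to 3.87 in depleted D21 and 0.32 to 0.92 in depleted NP rats, and every marker was well above background on at least 1 array of each group. Smooth muscle markers were higher in whole cervix too, 8 of 8 in NP and 5 of 8 in D21 rats, with 5.08 in whole NP, 4.28 in whole D21, 1.87 in depleted D21 and 0.56 in depleted NP cervix as group means. The part of fibroblasts and smooth muscle in the levels of Serpinf1, Serpinh1 and Serping1 was not tested.

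**Figure D4:**
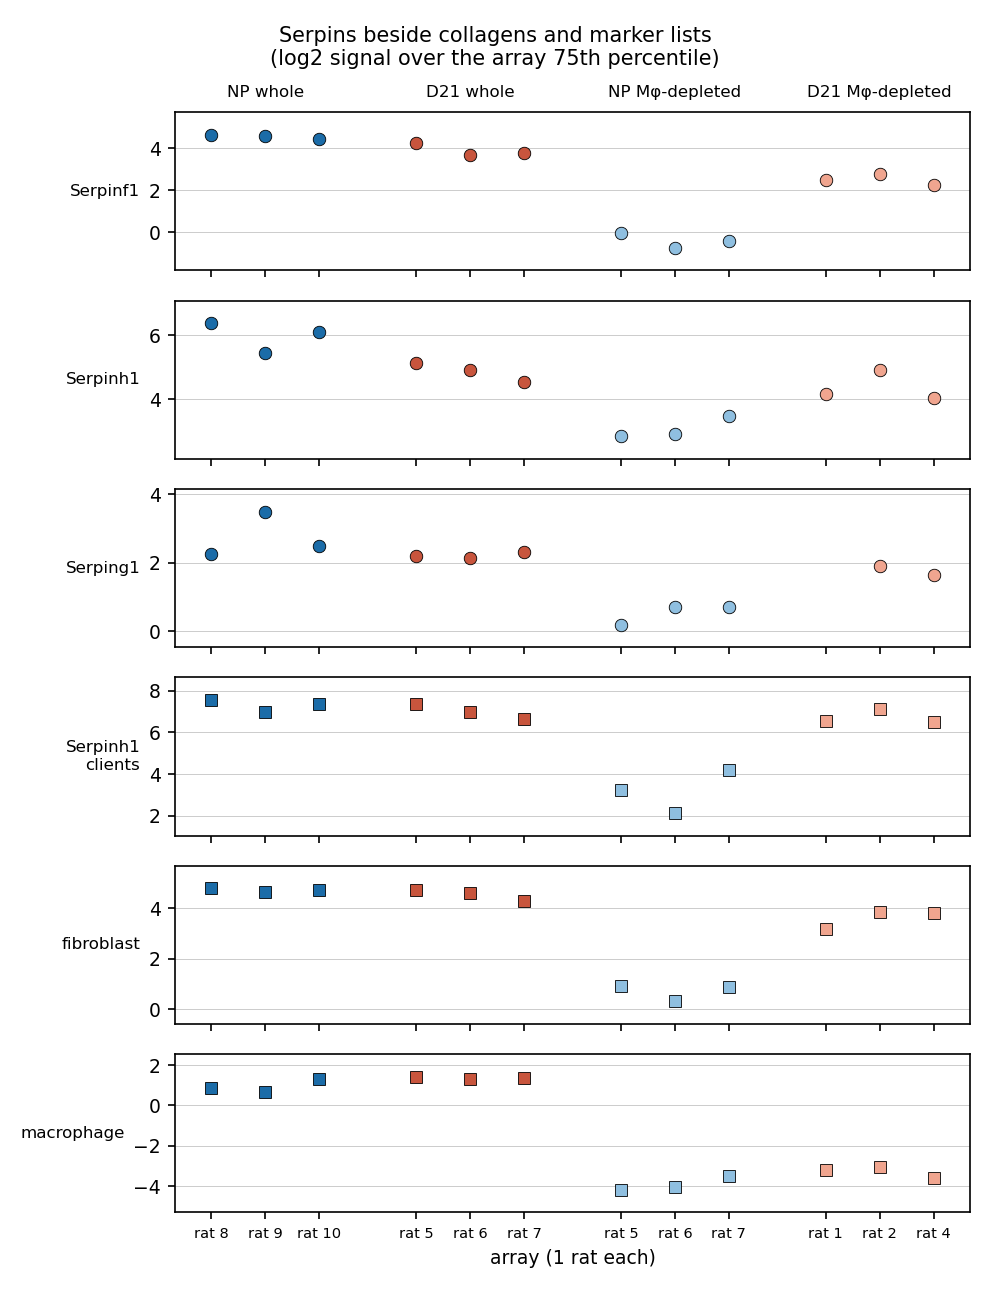
Log2 signal over the 75th percentile of the array in each rat for Serpinf1, Serpinh1 and Serping1 (circles) and the mean of 3 collagens served by Serpinh1, 8 fibroblast markers and 10 Mφ markers (squares). The 3 collagens are also part of the 8 fibroblast markers. In the 3 serpins, the collagens and the fibroblast markers the NP Mφ-depleted rats are lowest and D21 Mφ-depleted rats lie nearer to whole cervix, while the Mφ markers are low in both depleted groups. One Serping1 spot of D21 rat 1 was an outlier and is missing.

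Sequence before the start of Serpinf1 and Serpinh1 is shown because both genes had that order of groups. The last 120 bases before the RefSeq start (GRCr8, minus strand) were searched on both strands for the heat shock element (the binding site of heat shock factors), the TATA box TATAAA, the GC box GGGCGG, the CCAAT box CCAAT and the AP-1 site TGANTCA, and capitals mark a match:
Serpinh1 (chr1:163062977-163063096): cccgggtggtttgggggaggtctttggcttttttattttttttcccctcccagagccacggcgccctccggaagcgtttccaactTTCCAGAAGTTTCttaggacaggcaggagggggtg
Serpinf1 (chr10:60760899-60761018): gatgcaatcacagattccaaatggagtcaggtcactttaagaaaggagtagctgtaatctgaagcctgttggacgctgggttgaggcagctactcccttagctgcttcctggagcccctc
Serpinh1 held the heat shock element, with its first base 35 bases before the start, and Serpinf1 none of the 5 motifs in these letters. The element was present within 250 bases before the start in 0.663% of 33469 promoters and in 1 of 30 serpin genes with a promoter in the table. The TATA box was in 12.9% of all promoters and in 5 of the 30. The AP-1 site was in 6.34% and in 4 of the 30 (Serpinb2, Serpinb3, Serpinb5 and Serpinb7). The GC box was in 30.5% and in 7 of the 30, Serpinh1 among them, though not in the bases shown. The CCAAT box was in 34% and in 9 of the 30. None of these shares was tested.

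Whole NP cervix differed from Mφ-depleted NP cervix in 10 of 21 serpin genes tested, the most of any comparison, 6 higher and 4 lower. Of all probes tested 13.8% were called higher and 11.3% lower. Besides Serpinf1, Serpinh1 and Serping1, the genes higher in whole cervix were Serpinb9, Serpinb6b and Serpine2, and those lower were Serpinb8, Serpinb10, Serpinb1a and Serpina11. The median difference of the 21 genes was 0.33 and that of all probes tested -0.02.

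Serpinb9 had the second largest of these differences. It read -1.96, -2.96 and -2.60 in depleted NP rats, far below the whole NP rats given above, a difference of 4.72 (SE 0.38, adjusted p = 1.61e-05 from limma) or 26.3-fold. In depleted D21 rats it read -2.55, -3.29 and -2.61, again below every whole rat, and the difference was 3.21 (SE 0.38, adjusted p = 0.000656 from limma) or 9.25-fold. The Mφ-depleted D21 and NP rats overlapped, with a D21 minus NP difference of -0.31 (adjusted p = 0.709). Its interaction of -1.51 was not called (adjusted p = 0.217 from limma).

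Serpinb6b read -2.61, -2.83 and -2.33 in depleted NP and -2.89, -2.46 and -3.61 in depleted D21 rats, with 2 of 3 D21 arrays well above background. The whole NP rats stood above every other rat of the 12. The difference was 2.12 in NP (SE 0.32, adjusted p = 0.000799 from limma) and 0.58 in D21 rats (adjusted p = 0.227). Serpine2 had the same shape, with -0.86, -0.40 and -0.70 in whole NP, -2.02, -1.86 and -1.81 in whole D21, -2.45, -1.93 and -2.88 in depleted NP and -2.89, -1.96 and -2.89 in depleted D21 rats. It was higher by 1.77 in whole than in depleted NP cervix (SE 0.35, adjusted p = 0.00406 from limma).

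Of Serpinb9, Serpinb6b and Serpine2 only Serpinb9 was called between whole and depleted cervix in both states, as were most Mφ markers. Serpinf1, given above, was called in both states too. Serpinb6b and Serpine2 differed by 0.58 and 0.68 in D21 rats and were called in NP rats alone. The mean level of the 10 Mφ markers lay between 0.64 and 1.29 in whole NP and between 1.29 and 1.42 in whole D21, and fell to between -4.17 and -3.48 in depleted NP and between -3.61 and -3.07 in depleted D21 rats, where 4 and 3 of the markers were on no array well above background. Of the mast cell markers 3 of 4 tested were called higher in whole cervix in each state, with Kit lower in NP rats, and of the T and NK cell markers 1 of 2 tested, Nkg7. Their part in the serpin levels was not tested.

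Proteases that clade B serpins meet inside cells differed in the same comparison. Of the leukocyte serine proteases all 3 that could be tested in NP rats and all 4 in D21 rats were called, each with more signal in whole cervix. All are mast cell enzymes: the chymases Cma1 and Mcpt1 and the tryptase Tpsb2 in both, and Tpsab1 in D21. In D21 rats Mcpt1 was at least 7.68-fold and Tpsb2 at least 6.51-fold higher, since no depleted array saw them. Neutrophil elastase (Elane), proteinase 3 (Prtn3) and cathepsin G (Ctsg), the usual targets of Serpina1, Serpinb1a and Serpinb6a, were not bright enough to be tested in any comparison. Of 5 lysosomal cysteine proteases Ctss, Ctsk, Ctsl and Ctsh were higher in whole than in depleted NP cervix, by 3.91, 5.18, 1.34 and 1.37, and Ctss alone in D21 rats, by 2.97. Ctsk also differed by 3.04 between D21 and NP depleted cervix and by -4.07 in the interaction.

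The 4 genes lower in whole NP cervix were each well above background on all 12 arrays. Serpinb10 (bomapin, a serpin of blood-forming and monocytic cells) read 3.09, 3.04 and 2.79 in whole NP and 4.51, 4.74 and 4.57 in depleted NP rats, a difference of -1.63 (SE 0.38, adjusted p = 0.0103 from limma). In D21 rats it read 2.41, 3.47 and 2.80 in whole and 3.45, 3.34 and 4.55 in depleted cervix, with overlap. Serpinb8, as given above for whole cervix, read 0.88, 0.52 and 0.47 in depleted NP and 0.67, 0.82 and 1.16 in depleted D21 rats. On this probe the whole NP rats were thus the only ones below 0, and the difference was -1.43 in NP (SE 0.29, adjusted p = 0.00417 from limma) and -0.16 in D21 rats (adjusted p = 0.721). The other Serpinb8 probe gave -1.26 in NP (adjusted p = 0.0371 from limma) and 0.24 in D21 rats (adjusted p = 0.686). There depleted NP rats 5 and 6 read -0.20 and -0.01.

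Serpinb1a, the intracellular inhibitor of neutrophil elastase, read 3.28, 3.94 and 3.93 in whole NP, 3.84, 4.69 and 4.44 in whole D21, 4.68, 4.95 and 4.91 in depleted NP and 4.93, 5.64 and 5.09 in depleted D21 rats. In both states every whole rat was below every depleted rat. The difference was -1.13 in NP rats (SE 0.34, adjusted p = 0.0309 from limma) and -0.90 in D21 rats (adjusted p = 0.0905), and the overlapping second probe gave -1.08 and -0.95.

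Serpina11 read -2.36, -1.04 and -3.14 in whole and 0.52, 0.62 and -0.94 in depleted NP rats. The groups did not overlap, but whole rat 9 and depleted rat 7 lay side by side. Its difference of -2.25 was barely called (SE 0.75, adjusted p = 0.0496 from limma). The other probe gave -1.33 and was not called (adjusted p = 0.238), and within scan day 3, whole rats against NP rat 7, the difference was -1.24. Of the squamous epithelium markers 3 of 8 tested and of the glandular markers 3 of 7 were lower in whole NP cervix as well. Their mean level was 2.04 to 3.95 for squamous and 3.21 to 4.06 for glandular markers in depleted NP rats, and 0.59 to 2.39 and 2.04 to 2.92 in whole NP rats. Their part in the 4 serpins was not tested. All 10 genes kept their direction within scan day 3 and within slide 3, where NP rat 7 was the only depleted NP rat. Since the groups of all 10 did not overlap, no subset of these rats could have given another direction. With normexp 6 serpin genes were called. With slide as a block 8 were called, and Serpina11 (-0.53, adjusted p = 0.63 from limma) and Serpinb1a (-1.12, adjusted p = 0.134) were not. With scan day as a block 8 were called as well, again without Serpina11 (-1.01, adjusted p = 0.367 from limma) and Serpinb1a (-1.01, adjusted p = 0.127).

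In D21 rats 3 of 20 serpin genes tested were called between whole and Mφ-depleted cervix, where 8.44% of all probes were called higher and 5.37% lower. Serpinb9 and Serpinf1 were higher in whole cervix, with the values given above. Within scan day 3 both genes kept their direction against D21 rat 4, the only depleted D21 rat of that day. The groups of both genes did not overlap, so no other direction was possible. The slides that held whole D21 rats held no depleted ones. With scan day as a block Serpinb9 alone was still called, with slide as a block or with normexp 0 were, and 1 of the 3 genes was called without depleted rat 1 or without whole rat 5 or 7.

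The 4 genes of plasminogen activation, whose proteases are targets of Serpine2 among others, could all be tested. Plaur, the urokinase receptor, was lower in whole than in depleted D21 cervix, with a difference of -2.44 (SE 0.64, adjusted p = 0.0316 from limma), and Plau, urokinase itself, lower in whole than in depleted NP cervix, with a difference of -1.82 (SE 0.44, adjusted p = 0.0121). None of the 4 was called between D21 and NP rats. Vitronectin (Vtn), an adhesive matrix protein that also binds serpins, was higher in D21 than in NP depleted cervix by 3.82 and higher in whole than in depleted NP cervix by 4.35, and its interaction was -3.68 (adjusted p = 0.0469 from limma). Lrp1, the receptor that clears serpin complexes, was higher in whole than in depleted cervix by 1.29 in both states. Immediate-early genes, which answer to handling of cells among other stimuli, were lower in whole cervix for 5 of 6 genes tested in each state, at -0.90 to -0.62 in whole and 2.06 to 2.31 in depleted D21 rats and at -1.38 to -1.21 and 0.80 to 1.41 in NP rats. Their part in the serpin levels was not tested.

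**Figure D5:**
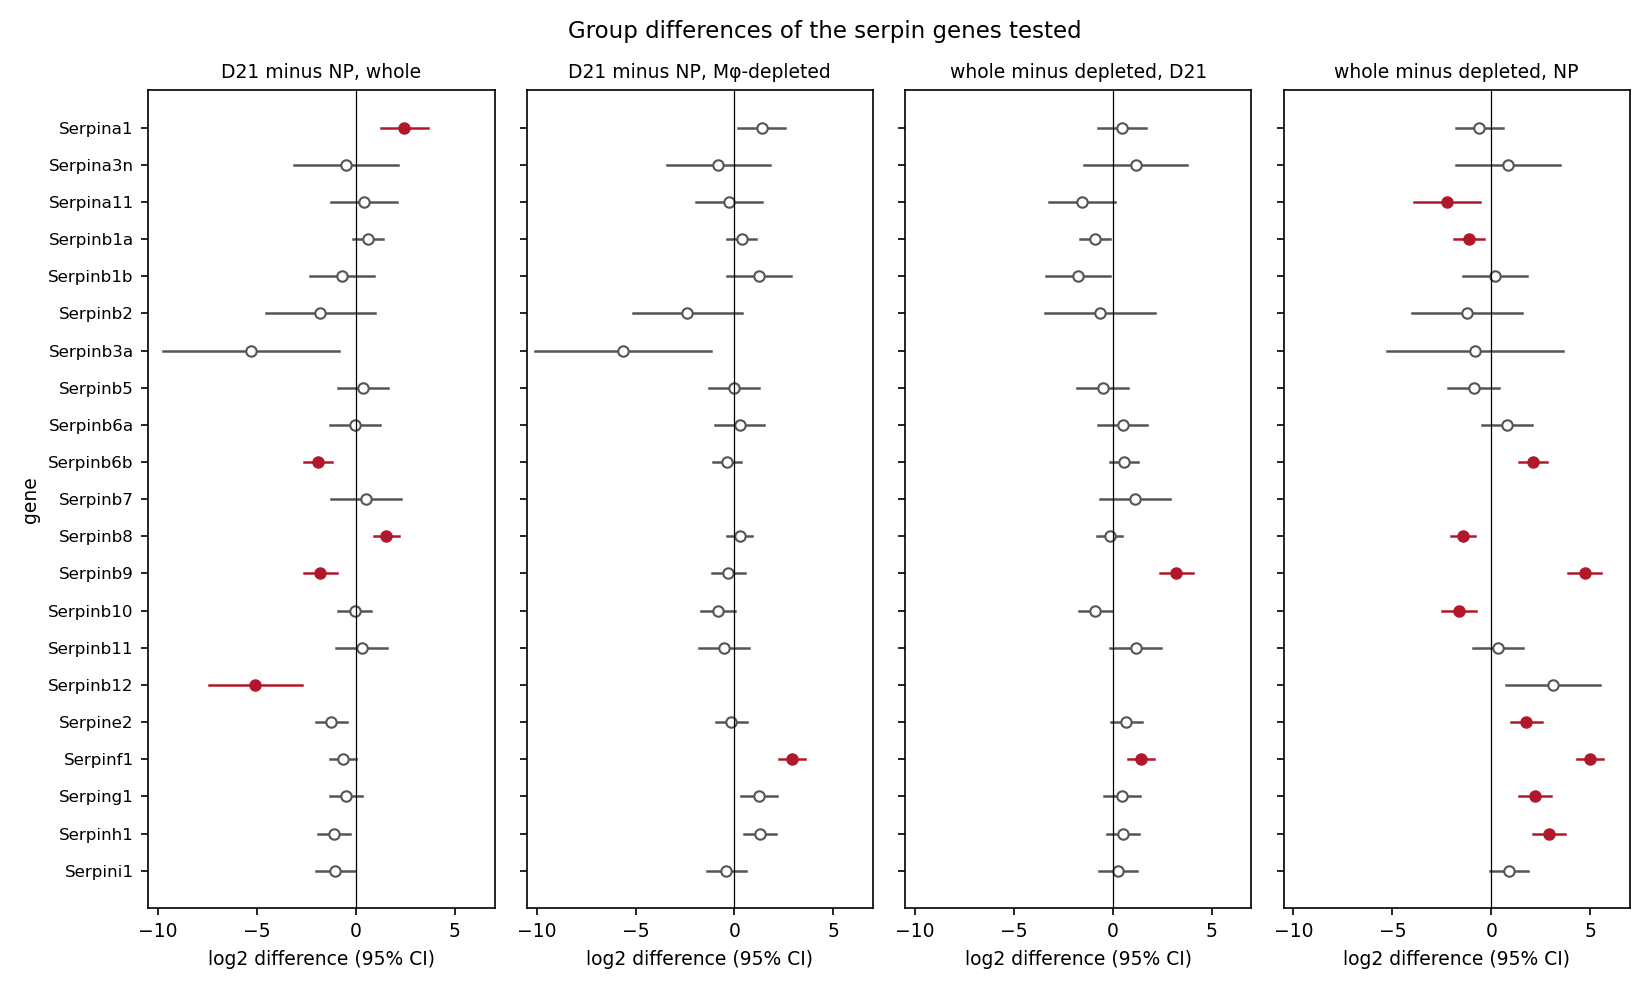
Log2 difference of 21 serpin genes tested in at least 1 comparison, with its 95% confidence interval from limma. Filled red points are called at an adjusted p below 0.05, open grey points are not, and a gene without a point in a panel was not tested there. Serpinf1 is called in 3 of the 4 panels and lies left of 0 only in whole cervix, and most calls are in the panel of NP rats.

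The remaining 9 genes tested were called in no comparison: Serpina3n, Serpinb1b, Serpinb2, Serpinb3a, Serpinb5, Serpinb6a, Serpinb7, Serpinb11 and Serpini1. Serpinb6a, an inhibitor of cathepsin G, ran from 1.29 to 3.53 over the 12 rats, with all 4 groups overlapping. The acute-phase serpin Serpina3n ran from -4.62 to 0.95, with NP rat 9 at the top of the whole and NP rat 7 at the top of the depleted arrays.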

How the data were processed

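Expression was measured in 12 one-colour (Cy3) Agilent rat arrays, 3 in each of 4 groups, grouped by the sample labels. The authors deposited scanner output, per the file headers from Agilent Feature Extraction 9.5.3.1 (protocol GE1-v5_95_Feb07), in which each spot has an intensity that is background-subtracted and detrended but not normalized between arrays. Probe positions are on rn4. The authors also deposited a table of normalized values, each a ratio to the 75th percentile of its array, which was used as an alternative.

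The deposited intensities were put on the log2 scale minus the log2 75th percentile of each array, spots flagged as outliers were dropped and spots of a probe averaged. The 12 arrays were fitted with limma 3.58.1 (R 4.3.3) over all 30367 probes with 4 group means, and p-values were adjusted by Benjamini-Hochberg over the probes tested. The fit was tested on simulated data. A gene was read from its brightest probe. Figures and counts were made with Python 3.11.15. The number of arrays, 3 in a group, limits the precision, and an exact permutation test of 3 against 3 cannot go below p = 0.1.

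By the rule for named genes, values of every rat are given for serpin genes called in at least 1 comparison and for Serpinf1 and Serpinb12. The other members are given by name, count and range, and pathway genes are named where called. The text went beyond this rule. Values of single rats are also given for Serpinb2, Serpinb3a, Serpina12 and Serpinb13, chosen after their values were seen. Some pathway genes and markers that were not called are named too. Results of 1 member are not reported here, although it is part of the counts. Members and lists were chosen with earlier results of these data known. Of the 43 probes, 38 had an accession that matched a RefSeq gene, and 2 of these have another symbol there (Serpinb9e is Serpinb9d and Serpina3k is Serpina3c). Another probe, of RefSeq Serpina16, has no Serpin name on the array and was not included. Alternatives covered background correction, normalization, the filter on dim probes, slide and scan day as a block, the choice of probe, the methods' t-test and leaving out each rat.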

Additional observations from a re-analysis of the deposited data

Results flagged for a closer look

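Serpinf1 had a whole minus Mφ-depleted difference that differed between D21 and NP rats by -3.58 on the log2 scale, in a test of the difference itself (interaction term in limma, adjusted p = 0.00766). Whole exceeded Mφ-depleted cervix by 1.40 in D21 rats and by 4.98 in NP rats, and every whole rat was above every Mφ-depleted rat in both states.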

How the results depend on the processing

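Of 63 member differences recomputed, 1185 values were obtained under an alternative, and 1074 kept direction and side of the threshold, 84 fell short of it, 27 newly passed it and 0 changed direction against a call. Of 20 called differences, 6 were called under every alternative that gave a value: Serpinf1 between D21 and NP depleted cervix, and Serpinb8, Serpinb9, Serpinb10, Serpinf1 and Serpinh1 between whole and depleted NP cervix. Counts of called serpin genes are given against 5 for D21 against NP whole cervix, 1 for depleted cervix, 3 for whole against depleted D21 cervix, 10 for NP cervix and 1 for the interaction. With normexp they were 0 in whole cervix, 0 in D21 rats, 6 in NP rats and 0 for the interaction. With slide as a block they were 1 in whole cervix, 0 in D21 rats and 0 for the interaction, and with scan day as a block 1 in D21 rats, while NP rats had 8 with either block. With no filter on background they were 2 in whole and 2 in depleted cervix, and with the filter on every array 3 in whole cervix. Quantile normalization gave 2 for the interaction, as did the spread estimated over the probes tested only, an alternative chosen after seeing the data. The paper's threshold with limma gave 3 in depleted cervix and 5 for the interaction. The methods' t-test at that threshold gave 2 in depleted cervix and 6 in NP rats, and after Benjamini-Hochberg adjustment 0 in whole cervix, 0 in depleted cervix, 0 in D21 rats and 5 in NP rats. The cause was not tested.

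Leaving out 1 rat gave 0 to 7 for whole cervix (0 without NP rat 8 or 10 or D21 rat 5, 6 or 7, and 7 without NP rat 9), 1 to 4 for depleted cervix (2 without NP rat 7, 4 without D21 rat 4), 1 to 5 for D21 rats (1 without whole rat 5 or 7 or depleted rat 1, 5 without depleted rat 4), 8 to 12 for NP rats and 0 to 4 for the interaction (0 without whole D21 rat 7, 2 without depleted NP rat 7, 4 without depleted D21 rat 4). Taking the percentile only over probes seen on every array moved the median of all probes by -0.161 between D21 and NP depleted cervix, 0.187 between whole and depleted D21 cervix and 0.135 for the interaction. No paired analysis was possible because the groups compared share no replicate numbers. Dim probes have only a bound, which limits Serpinb12.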
